A study of Mus musculus with 6 samples.

Results

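Translation initiation factors are the proteins that bring the initiator methionyl-tRNA, the small ribosomal subunit and an mRNA together. Their genes were taken as every row of the deposited expression table whose gene name begins with Eif1 to Eif6. The 4 Eif2ak genes, which encode kinases, and 7 pseudogenes named with -ps were left out of the 63 matching names. This left 52 genes of 24602 in the table. Of these, 46 had a mean of at least 1 FPKM (a level per length of transcript, scaled to the mapped fragments of the library) over the 6 libraries and were tested. The 6 genes that were not tested were Eif1a, Eif2s3y, Eif4a3l1, Eif4a3l2, Eif4ebp3 and Eif5a2. The tested genes Eif2a, Eif2s2 and Eif3j2 averaged less than 1 FPKM in the sham samples and passed the minimum through their TAC values.

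The samples were left ventricles of wild-type mice, 3 taken 5 weeks after a sham operation and 3 taken 5 weeks after transverse aortic coarctation (TAC), which narrows the aorta and loads the ventricle with pressure. The labels used here name no strain and no age. Samples are numbered 1 to 3 in each group without a statement that each is its own mouse, so the p-values rest on a spread that may be technical. Poly(A) RNA was sequenced from each sample, and the libraries held from 64023153 to 69992502 estimated counts.

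In the textbook scheme, eIF2 carries the initiator tRNA in its GTP-bound form and eIF2B recharges it with GTP. The factors eIF1, eIF1A and eIF3 bind the small subunit and prepare it for scanning, while eIF4E, eIF4G and the helicase eIF4A bind the capped end of the mRNA and unwind it. The factor eIF5 promotes GTP hydrolysis at the start codon, and eIF5B helps the large subunit to join. In the heart, protein synthesis rises when muscle cells enlarge under load, and much of its control falls on phosphorylation of eIF2 and of the eIF4E-binding proteins, which RNA levels do not measure.

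The comparison asked which initiation factor mRNAs differed between TAC and sham ventricles. Of the 46 tested genes, 10 rose in TAC, 0 fell and 36 did not pass the test (edgeR quasi-likelihood test, Benjamini-Hochberg adjusted p under 0.05 over 8795 genes). Over all tested genes 4.71% rose and 2.29% fell, 6.99% in all. At an unadjusted p under 0.05, 17 of the initiation factors were higher and 1 was lower. The matching shares of all tested genes were not counted by direction. DESeq2 called 14 higher and 1 lower, where it called 1648 of the 8795 genes in either direction. In simulated data DESeq2 called unchanged genes more often than its threshold allows, which also limits its counts for each complex below. Limma on log2(FPKM + 1) called 3 higher and 1 lower, where it called 174 higher and 338 lower over all tested genes. The genes that rose were Eif2s2, Eif3a, Eif3e, Eif3j1, Eif3m, Eif4a1, Eif4a2, Eif4g2, Eif5 and Eif5b. Their log2 fold changes lay between 0.59 and 1.43, and those of the genes that did not pass lay between -0.48 and 0.88. The median log2 fold change was 0.12 over the tested initiation factors and -0.01 over all tested genes. With each library's trend over GC content and transcript length removed, 2 of the 10 passed. Leaving out sham 2, sham 3 or TAC 1 left 0 of the 46 that passed with edgeR. At an unadjusted p under 0.05 these 3 fits had 13, 14 and 14 initiation factors higher and 1 lower in each, again without a matching share of all tested genes. The number of all tested genes that passed also changed with the library left out, and its range is given in the last section.

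**Figure D1:**
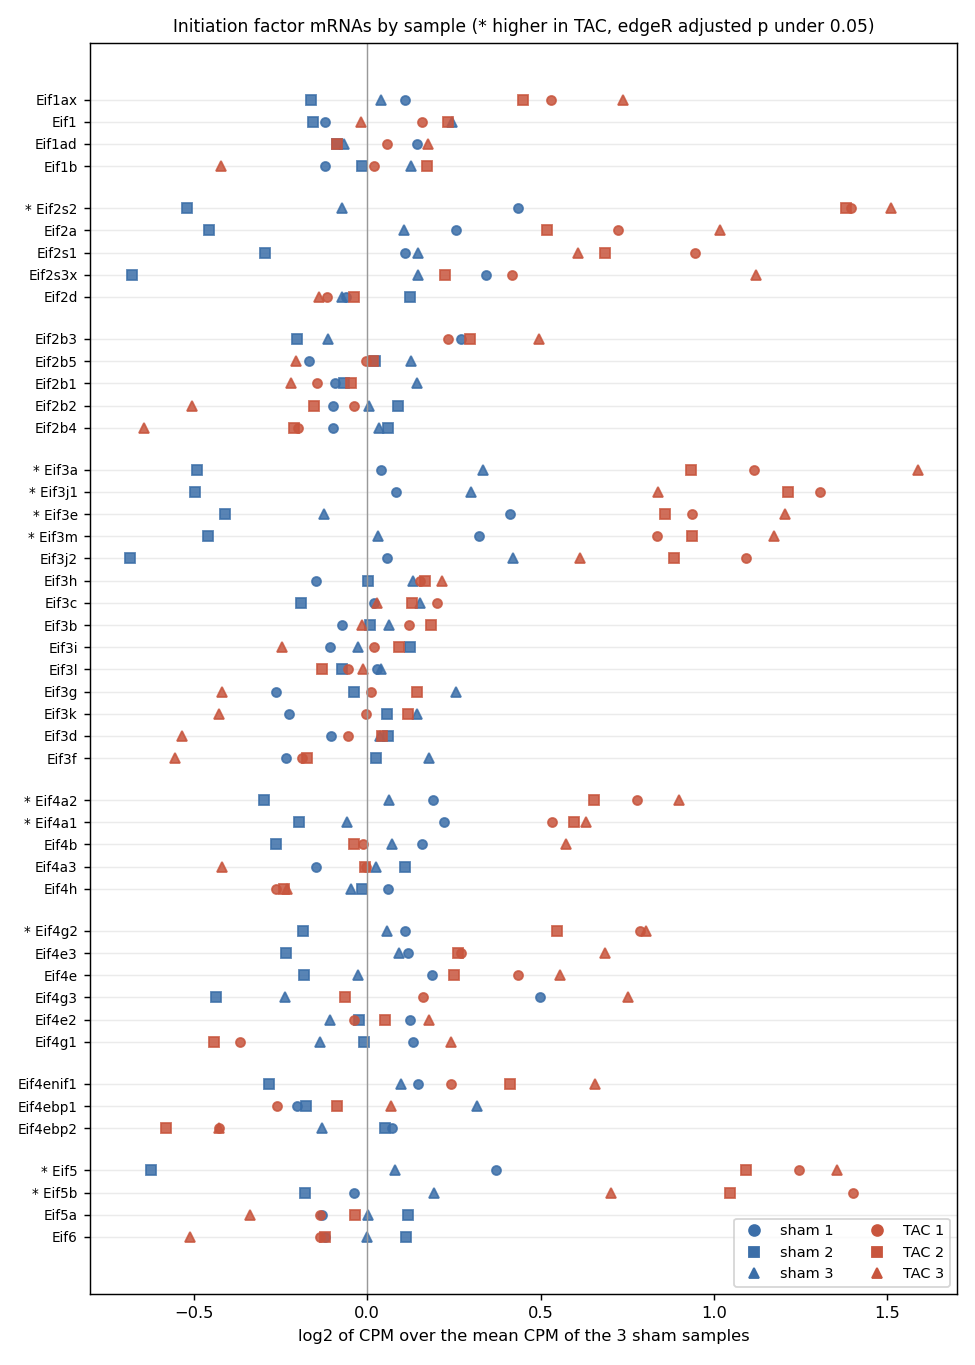
Level of each of the 46 tested mRNAs in each of the 6 samples, as log2 of its CPM over the mean CPM of the 3 sham samples, grouped from top to bottom as eIF1, eIF2, eIF2B, eIF3, eIF4A with its cofactors, eIF4E with eIF4G, eIF4E inhibitors with the transporter, and eIF5 to eIF6. Points are samples, and the 10 genes marked with a star have all 3 TAC samples to the right of all 3 sham samples.

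The 10 mRNAs that rose shared a base composition. All 10 lay in the lowest quartile of tested genes by GC content of the longest transcript, as did 309 of the 414 genes that rose over all tested genes. Of the 10, 9 carried G or C at the third position of fewer than 50% of their codons. Over 7980 tested genes the lower quartile of this value was 56.2% and the median 63.9%. Its share among all genes that rose was not counted, so it is not shown to be particular to initiation factors. To show this, a stretch of the coding sequence, bases 301 to 450 counted from the first base of the start codon, is printed for 8 genes from the GENCODE M21 transcripts of build GRCm38. Capitals mark each G or C at the third position of a codon. Eif2s2, Eif5, Eif3a, Eif3e and Eif4a2 rose in TAC, and Eif3b, Eif3k and Eif4a3 are abundant relatives that did not pass the test. The last 3 have high third-position GC, at 68.4%, 76.6% and 70.1%, so the genes printed leave out the exceptions. Genes under 50% that did not pass, such as Eif2a at 36.3% and Eif1ax at 38.9%, are not printed. Neither is Eif4a1, which rose at 57.6%.
Eif2s2: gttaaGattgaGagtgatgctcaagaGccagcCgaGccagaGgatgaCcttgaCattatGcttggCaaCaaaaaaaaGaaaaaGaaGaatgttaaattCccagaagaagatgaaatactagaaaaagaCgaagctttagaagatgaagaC
Eif5: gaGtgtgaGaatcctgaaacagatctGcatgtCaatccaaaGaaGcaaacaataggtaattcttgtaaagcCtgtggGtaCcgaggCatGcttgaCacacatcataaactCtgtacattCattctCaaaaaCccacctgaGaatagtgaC
Eif3a: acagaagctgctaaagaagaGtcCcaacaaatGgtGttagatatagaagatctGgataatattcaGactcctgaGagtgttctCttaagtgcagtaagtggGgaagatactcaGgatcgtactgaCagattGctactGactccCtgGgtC
Eif3e: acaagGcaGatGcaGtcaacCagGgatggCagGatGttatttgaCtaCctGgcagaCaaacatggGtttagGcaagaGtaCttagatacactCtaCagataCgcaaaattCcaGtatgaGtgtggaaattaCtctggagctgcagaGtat
Eif4a2: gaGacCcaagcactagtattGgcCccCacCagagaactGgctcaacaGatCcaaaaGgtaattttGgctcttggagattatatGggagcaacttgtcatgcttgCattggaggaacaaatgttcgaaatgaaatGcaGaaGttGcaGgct
Eif3b: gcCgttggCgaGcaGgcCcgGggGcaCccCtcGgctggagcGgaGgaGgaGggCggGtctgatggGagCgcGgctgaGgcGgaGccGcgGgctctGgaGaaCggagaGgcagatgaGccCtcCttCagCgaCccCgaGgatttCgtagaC
Eif3k: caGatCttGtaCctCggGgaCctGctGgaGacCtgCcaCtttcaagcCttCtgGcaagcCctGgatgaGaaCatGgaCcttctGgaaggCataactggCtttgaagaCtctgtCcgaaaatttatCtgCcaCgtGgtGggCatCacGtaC
Eif4a3: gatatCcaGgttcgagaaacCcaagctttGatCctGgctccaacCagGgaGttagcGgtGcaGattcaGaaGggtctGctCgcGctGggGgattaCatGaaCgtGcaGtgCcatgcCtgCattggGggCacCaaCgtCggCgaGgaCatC
Of the 50 codons shown, those ending in G or C numbered 17 in Eif2s2, 18 in Eif5, 16 in Eif3a, 25 in Eif3e and 18 in Eif4a2. They numbered 38 in Eif3b, 36 in Eif3k and 36 in Eif4a3. The stretches are spliced from coding exons of Eif2s2 (chr2:154871410-154892935, minus strand), Eif5 (chr12:111538016-111546752, plus), Eif3a (chr19:60761117-60790658, minus), Eif3e (chr15:43250058-43282719, minus), Eif4a2 (chr16:23107444-23114117, plus), Eif3b (chr5:140419328-140443360, plus), Eif3k (chr7:28971372-28981814, minus) and Eif4a3 (chr11:119288363-119300089, minus). The other genes that rose are Eif3j1 (chr2:122028546-122056598, plus), Eif3m (chr2:104999656-105017080, minus), Eif4a1 (chr11:69666936-69672317, minus), Eif4g2 (chr7:111067750-111083030, minus) and Eif5b (chr1:37998010-38055579, plus).

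Among the eIF2 genes, the mRNA of the beta subunit rose and those of the other tested subunits did not pass the test. This is 1 of 5 tested genes, where 4.71% of all tested genes rose. With the GC and length trends removed 1 of the 5 rose, where 2.76% of all tested genes did. Of the 5 tested genes, DESeq2 called 3 higher and limma on log2(FPKM + 1) called 1. Eif2s2, which encodes eIF2 beta, was at 8.67, 4.48 and 6.10 CPM (counts scaled to library size by edgeR's TMM factors) in sham 1, 2 and 3 and at 16.9, 16.7 and 18.3 CPM in TAC 1, 2 and 3. The TAC samples lay close together and every one exceeded every sham sample. Eif2s2 averaged 0.931 FPKM in sham and 2.29 FPKM in TAC, so it passed the minimum of 1 FPKM only through TAC. Its mean went from 6.42 ± 2.11 to 17.3 ± 0.849 CPM (SD, n = 3 each), a log2 fold change of 1.43 with a standard error of 0.24 and an edgeR adjusted p of 0.0251. Eif2s1 encodes eIF2 alpha, the subunit that stress kinases phosphorylate. It was at 8.89, 6.72 and 9.13 CPM in sham and 15.9, 13.3 and 12.6 CPM in TAC. The groups did not overlap, but the log2 fold change of 0.75 (SE 0.19) had an edgeR adjusted p of 0.0510 and missed the threshold.

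The gamma subunit, which binds GTP and the tRNA, is encoded by a gene on the X and a gene on the Y chromosome. Eif2s3x was at 11.4, 5.62 and 9.97 CPM in sham and 12.0, 10.52 and 19.6 CPM in TAC, so the groups overlapped, and its log2 fold change was 0.64 (SE 0.32, edgeR adjusted p = 0.231). Eif2s3y stayed under the minimum for the test. It was at 3.12, 1.28 and 1.88 CPM in sham and 5.73, 5.95 and 4.99 CPM in TAC, with every TAC sample above every sham sample. Eif2d encodes a factor that can deliver tRNA without GTP, and Eif2a an alternative initiator protein. Eif2d was at 56.7, 64.5 and 56.3 CPM in sham and 54.7, 57.7 and 53.8 CPM in TAC, overlapping, with a log2 fold change of -0.10 (adjusted p = 0.666). Eif2a had a log2 fold change of 0.77 (SE 0.24, adjusted p = 0.0811) and groups that did not overlap.

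Summed FPKM over the 6 eIF2 and tRNA delivery genes was 15.2, 13.5 and 14.2 in sham and 16.4, 15.8 and 20.3 in TAC. The groups did not overlap, and the log2 ratio of their means was 0.30. The exact 2-sided permutation p was 0.1, the smallest that 3 against 3 samples can give.

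Of the 5 genes of eIF2B, the factor that reloads eIF2 with GTP, 0 passed the edgeR test and 0 reached an unadjusted p under 0.05. DESeq2 and limma on log2(FPKM + 1) also called 0. Eif2b5, which encodes the catalytic epsilon subunit and was the most abundant of the 5 at 39.5 FPKM, was at 99.3, 113.2 and 121.8 CPM in sham and 111.3, 112.8 and 96.8 CPM in TAC. The groups overlapped and the log2 fold change was -0.06 (SE 0.14, edgeR adjusted p = 0.818), a sign that turned under other settings. Eif2b4, the delta subunit, had the lowest fold change of the group. It was at 97.6, 108.9 and 106.9 CPM in sham and 90.9, 90.4 and 66.9 CPM in TAC, with every TAC sample below every sham sample and a log2 fold change of -0.34 (SE 0.15, adjusted p = 0.198).

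Eif2b3, the gamma subunit, had the highest fold change of the 5. It was at 8.18, 5.89 and 6.27 CPM in sham and 7.97, 8.34 and 9.56 CPM in TAC. The groups overlapped, with a log2 fold change of 0.35 (SE 0.20, adjusted p = 0.287). Summed FPKM over the 5 genes was 106.8, 125.2 and 123.1 in sham and 96.3, 95.8 and 89.0 in TAC. These sums did not overlap (log2 ratio -0.34, exact permutation p = 0.1), whereas the sums of CPM overlapped, with a log2 ratio of -0.17 and an exact permutation p of 0.3.

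Of the 4 tested genes of eIF1 and eIF1A, 0 passed the edgeR test and 1 reached an unadjusted p under 0.05. DESeq2 called 1, Eif1ax, and limma on log2(FPKM + 1) called 0. Eif1 encodes a guardian of start codon choice and was the most abundant of them at 158.2 FPKM. It was at 311.3, 304.4 and 401.3 CPM in sham and 378.4, 398.2 and 335.0 CPM in TAC. The groups overlapped and the log2 fold change was 0.13 (SE 0.16, edgeR adjusted p = 0.644), turning to -0.01 or nearer 0 under 3 other settings. Eif1ax, the X-linked gene of eIF1A, was at 11.5, 9.56 and 10.99 CPM in sham and 15.4, 14.6 and 17.8 CPM in TAC. Its groups did not overlap and its log2 fold change was 0.58 (SE 0.16, adjusted p = 0.0664), but with the GC and length trends removed it was -0.05. Eif1b was at 23.4, 25.2 and 27.7 CPM in sham and 25.7, 28.7 and 19.0 CPM in TAC, overlapping, with a log2 fold change of -0.06 (adjusted p = 0.875) that turned under 4 settings.

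Within eIF3, the large scaffold on the small subunit, 4 of 14 genes rose and 10 did not pass, where 4.71% of all tested genes rose. With the GC and length trends removed 1 of the 14 rose, where 2.76% of all tested genes did. DESeq2 called 5 higher and limma on log2(FPKM + 1) called 1. Eif3a encodes the largest subunit, a core of the complex. It was at 9.45, 6.54 and 11.6 CPM in sham and 19.9, 17.6 and 27.6 CPM in TAC. Every TAC sample exceeded every sham sample, TAC 3 by the most. The mean went from 9.19 ± 2.53 to 21.7 ± 5.27 CPM (SD, n = 3 each), a log2 fold change of 1.24 (SE 0.26, edgeR adjusted p = 0.0335). Eif3j1 encodes a loosely bound subunit that acts at the decoding site. It was at 11.4, 7.61 and 13.2 CPM in sham and 26.5, 24.9 and 19.2 CPM in TAC, again without overlap, with a log2 fold change of 1.13 (SE 0.23, adjusted p = 0.0332).

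Eif3e and Eif3m encode subunits of the structural body of eIF3. Eif3e was at 24.2, 13.7 and 16.7 CPM in sham and 34.8, 33.0 and 42.0 CPM in TAC, a log2 fold change of 1.01 (SE 0.22, edgeR adjusted p = 0.0387). Eif3m was at 24.6, 14.3 and 20.1 CPM in sham and 35.1, 37.7 and 44.4 CPM in TAC, a log2 fold change of 0.99 (SE 0.21, adjusted p = 0.0358). In both, sham 1 was the highest and sham 2 the lowest sham sample, and the groups did not overlap.

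The more abundant eIF3 mRNAs did not pass. Eif3h, the highest at 160.1 FPKM, was at 233.2, 258.4 and 282.9 CPM in sham and 287.1, 289.6 and 299.7 CPM in TAC. Its TAC samples lay just above the sham samples in CPM but overlapped them in FPKM, and the log2 fold change was 0.18 (SE 0.13, edgeR adjusted p = 0.417). Eif3f had the lowest fold change of the complex. It was at 288.1, 345.0 and 384.1 CPM in sham and 297.7, 300.9 and 230.9 CPM in TAC, overlapping, with a log2 fold change of -0.29 (SE 0.17, adjusted p = 0.293). Eif3b, which encodes a scaffold subunit, had a log2 fold change of 0.10 (SE 0.13, adjusted p = 0.656).

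Per length of transcript, the mean level of the eIF3 mRNAs spanned 137-fold, from Eif3j2 at 1.17 FPKM to Eif3h at 160.1 FPKM. The 4 that rose lay between 1.64 and 10.5 FPKM, at the low end of that order. Summed FPKM over the 14 genes was 522.6, 599.3 and 634.8 in sham and 530.1, 543.0 and 544.4 in TAC. The sums overlapped, with a log2 ratio of -0.12 and an exact permutation p of 0.4, and the sum of CPM gave 0.03.

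**Figure D2:**
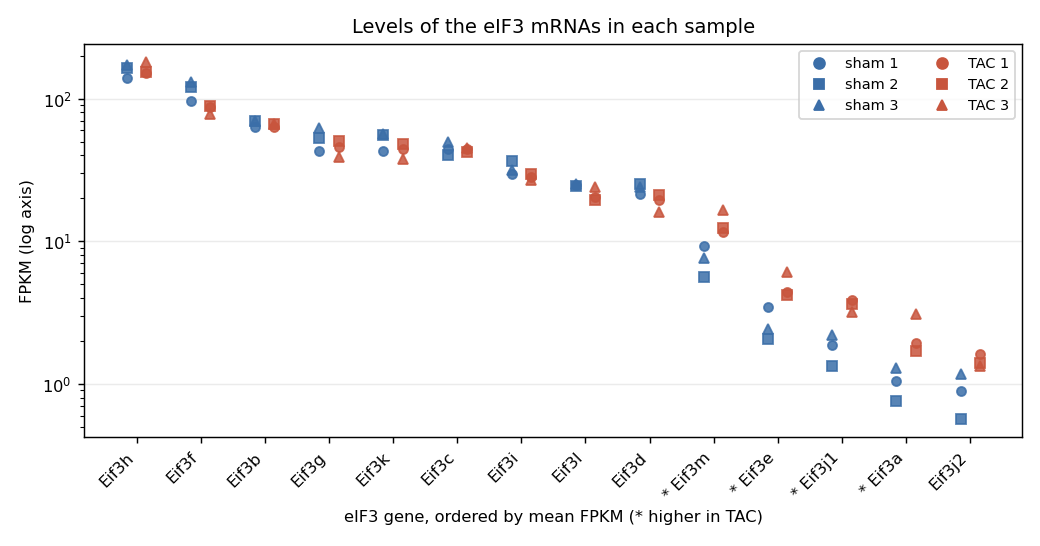
FPKM of the 14 eIF3 genes in each of the 6 samples on a log axis, ordered by mean FPKM, with sham samples left and TAC samples right of each tick. The 4 starred genes that rose sit among the 5 lowest, between 1.64 and 10.5 FPKM on average.

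Eif3j1 and Eif3j2 are near-identical copies, with 99.41% identity over 2379 bases, so the split of fragments between them is uncertain. Eif3j2 had a log2 fold change of 0.88 (SE 0.31, edgeR adjusted p = 0.109) and groups that did not overlap. Eif3j1 also shares 19.0% of its exonic bases with Spg11 on the opposite strand, and Eif3d shares 43.3% with another record. Of the genes that rose, 5 have a processed pseudogene at least 95% identical over at least 200 bases, among them Eif2s2 (Gm9892, 99.5% over 992 bases) and Eif4a1 (Eif4a-ps4, 99.92% over 1218 bases). With the counts of such copies added to their parent gene, 9 of the 10 still passed and Eif4a1 reached an adjusted p of 0.0548.

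The eIF4A group, made of the helicases that unwind mRNA and their cofactors, had 2 genes of 5 that rose, where 4.71% of all tested genes did. With the GC and length trends removed 0 of the 5 passed. Of these 5, DESeq2 called 2 and limma on log2(FPKM + 1) called 0. Eif4a1, which encodes the main helicase of cap-dependent initiation, was at 72.2, 54.1 and 59.5 CPM in sham and 89.7, 93.6 and 96.0 CPM in TAC. Its paralog Eif4a2 was at 47.2, 33.6 and 43.2 CPM in sham and 70.9, 65.1 and 77.1 CPM in TAC. In both genes the TAC samples lay above all sham samples. The log2 fold change was 0.59 (SE 0.14, edgeR adjusted p = 0.0483) for Eif4a1 and 0.78 (SE 0.16, edgeR adjusted p = 0.0335) for Eif4a2.

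The other helicase gene, Eif4a3, did not pass. Eif4a3, a component of the exon junction complex and the most abundant of the group at 33.9 FPKM, was at 72.4, 86.5 and 81.6 CPM in sham and 80.01, 79.9 and 60.0 CPM in TAC. The groups overlapped, with a log2 fold change of -0.13 (SE 0.16, edgeR adjusted p = 0.639). Eif4h, which encodes a cofactor of the helicase, was at 195.9, 185.8 and 181.8 CPM in sham and 156.4, 159.1 and 160.1 CPM in TAC. Every TAC sample lay below every sham sample, but the log2 fold change of -0.24 (SE 0.12) had an adjusted p of 0.216. The other cofactor gene, Eif4b, had a log2 fold change of 0.20 (adjusted p = 0.557). The copies Eif4a3l1 and Eif4a3l2 were under 0.1 CPM in every sample.

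Among the 6 genes of cap binding and scaffolds, 1 rose, where 4.71% of all tested genes did. With the GC and length trends removed 0 of the 6 passed. DESeq2 called 1 and limma on log2(FPKM + 1) called 0. Eif4g2, also called DAP5, encodes an eIF4G-like scaffold without the eIF4E-binding part, and its annotated coding sequence starts with GTG. It was at 127.6, 104.1 and 123.1 CPM in sham and 204.1, 172.8 and 206.7 CPM in TAC. The lowest TAC sample was well above the highest sham sample. The mean went from 118.3 ± 12.5 to 194.5 ± 18.9 CPM (SD, n = 3 each), with a log2 fold change of 0.72 (SE 0.14, edgeR adjusted p = 0.0314).

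Eif4g1, the main scaffold, was the most abundant of the 6 at 61.9 FPKM. It was at 550.4, 499.7 and 457.1 CPM in sham and 389.5, 369.6 and 594.1 CPM in TAC. TAC 1 and TAC 2 lay below all sham samples and TAC 3 above them, and the log2 fold change was -0.16 (SE 0.20, edgeR adjusted p = 0.666). Without TAC 3 it was -0.40 (adjusted p = 0.0579). The cap-binding gene Eif4e had a log2 fold change of 0.42 (SE 0.15, adjusted p = 0.116), with TAC samples above all sham samples in CPM and overlapping them in FPKM. With the GC and length trends removed its log2 fold change was -0.17. Eif4e3, a relative of Eif4e, had a log2 fold change of 0.42 (adjusted p = 0.175), and Eif4e2, a cap-binding repressor, 0.07 (adjusted p = 0.794).

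The eIF4E-binding proteins block eIF4E until mTORC1 phosphorylates them. Of the 3 tested genes of this group 0 passed the edgeR test, with 1 higher and 1 lower at an unadjusted p under 0.05. DESeq2 and limma on log2(FPKM + 1) each called 1 lower, Eif4ebp2. Eif4ebp2 was at 163.5, 161.1 and 142.0 CPM in sham and 115.7, 104.0 and 115.6 CPM in TAC. The groups did not overlap, and the log2 fold change was -0.48 (SE 0.13, edgeR adjusted p = 0.0606). Without TAC 3 the adjusted p was 0.0247. Eif4ebp1, the most abundant at 34.5 FPKM, was at 71.9, 73.1 and 103.0 CPM in sham and 69.0, 77.8 and 86.7 CPM in TAC. Its groups overlapped, with a log2 fold change of -0.09 (SE 0.18, adjusted p = 0.794) that was 0.10 without sham 3.

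Eif4ebp3 was at 0.073, 0 and 0 CPM in sham and 0.0174, 0 and 0.0701 CPM in TAC, and 67.3% of its exonic bases are shared with Maskbp3 on the same strand. Eif4enif1 encodes the transporter that takes eIF4E into the nucleus. It was at 20.3, 15.0 and 19.6 CPM in sham and 21.7, 24.3 and 28.9 CPM in TAC, without overlap, and its log2 fold change was 0.45 (SE 0.18, edgeR adjusted p = 0.153).

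Of the factors that act at the start codon and at subunit joining, Eif5 and Eif5b rose, while Eif5a and Eif6 did not pass. These are 2 of 4 tested genes, where 4.71% of all tested genes rose. With the GC and length trends removed 0 of the 4 passed. DESeq2 called 2 of these 4 and limma on log2(FPKM + 1) called 1. Eif5 encodes the protein that activates the GTPase of eIF2. It was at 10.9, 5.45 and 8.88 CPM in sham and 19.9, 17.9 and 21.5 CPM in TAC, a log2 fold change of 1.24 (SE 0.25, edgeR adjusted p = 0.0323). Eif5b encodes the GTPase of subunit joining. It was at 11.6, 10.52 and 13.6 CPM in sham and 31.4, 24.6 and 19.4 CPM in TAC, a log2 fold change of 1.08 (SE 0.21, adjusted p = 0.0301). Neither gene's groups overlapped. The record of Eif5b shares 16.8% of its exonic bases with Rev1 on the opposite strand.

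Eif5a encodes a hypusine-bearing factor that acts mainly in elongation and was the most abundant of all 52 genes at 189.5 FPKM. It was at 461.7, 548.5 and 506.4 CPM in sham and 460.0, 493.8 and 400.2 CPM in TAC. The groups overlapped, with a log2 fold change of -0.16 (SE 0.14, edgeR adjusted p = 0.507). Eif6, which keeps the large subunit apart from the small one, was at 48.1, 56.5 and 52.3 CPM in sham and 47.5, 48.1 and 36.7 CPM in TAC. It had the lowest fold change of the group, a log2 value of -0.25 (SE 0.15, adjusted p = 0.334). Summed FPKM over the 5 genes was 207.9, 257.8 and 229.9 in sham and 185.3, 196.7 and 182.2 in TAC. These sums did not overlap (log2 ratio -0.30, exact permutation p = 0.1), but the sums of CPM did, with a log2 ratio of -0.10.

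The 2 units ordered the samples differently. In CPM, 18 tested initiation factors had all TAC samples above all sham samples and 3 had them below, where 17.7% and 17.1% of all tested genes did so. In FPKM, 14 lay above and 12 below, against 11.6% and 25.4% of all tested genes. All 10 genes that rose were apart in both units. The 12 that were lower in FPKM were Eif2b1, Eif2b2, Eif2b4, Eif2d, Eif3d, Eif3f, Eif3l, Eif4a3, Eif4ebp2, Eif4h, Eif5a and Eif6. Only Eif2b4, Eif4ebp2 and Eif4h among these 12 were also apart in CPM. The FPKM scale divides by all mapped fragments, and the mitochondrial chromosome took 14.8% to 19.2% of the counts in sham and 22.6% to 29.2% in TAC. Its part in the difference between units was not tested.

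Base composition was a property of the mRNAs that the choice of genes did not use. Among tested genes in the lowest quartile of GC content, 10 of 19 initiation factors rose, where 14.1% of all genes in that quartile rose. Of the 19, Eif2a, Eif2s2 and Eif3j2 passed the minimum of 1 FPKM only through TAC. In quartiles 2, 3 and 4, edgeR called 0 of 14, 0 of 10 and 0 of 3, where 2.18%, 1.5% and 1.09% of all genes rose. The transcripts that rose had GC contents of 36.2% to 46.3% with a median of 42.1%, and those that did not pass ran from 39.7% to 57.9% with a median of 50.6%. Those that rose were also less abundant, with a median of 3.23 FPKM against 21.6 FPKM. They were longer as well, with a median of 4112 bases against 2550. Among the 18 tested initiation factors with G or C at the third position of fewer than 50% of codons, 9 rose, and among the 28 others 1 rose, Eif4a1. The share of all tested genes that rose in each of these classes was not counted. Third-position GC and log2 fold change had a Spearman rho of -0.77 over the 46 initiation factors and -0.39 over 7980 tested genes.

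Across the 46 genes the log2 fold change and transcript GC content had a Pearson r of -0.86 and a Spearman rho of -0.83. Across 8789 tested genes the values were -0.43 and -0.49. With log2 mean FPKM the Pearson r was -0.72 over the 46 genes and -0.15 over all tested genes. With log2 transcript length it was 0.48 over the 46 genes and -0.05 over all tested genes. Genes share the same 6 libraries and are not independent replicates, so these are descriptions. Within the lowest GC quartile the median log2 fold change was 0.77 over the initiation factors and 0.41 over all genes. Eif2a, Eif2s2 and Eif3j2, which passed the minimum of 1 FPKM only through TAC, lie at or above that median of 0.77. They are also among the 46 genes of the correlations, so these values rest in part on genes kept because they were high in TAC. The libraries themselves differed along this axis. The median deviation of genes in the lowest GC quartile minus that of genes in the highest was -0.12, -0.49 and -0.21 on the log2 scale in sham 1, 2 and 3 and 0.22, 0.17 and 0.45 in TAC 1, 2 and 3. This offset moves with the groups, and whether it is a property of the tissue or of the libraries cannot be told apart here.

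**Figure D3:**
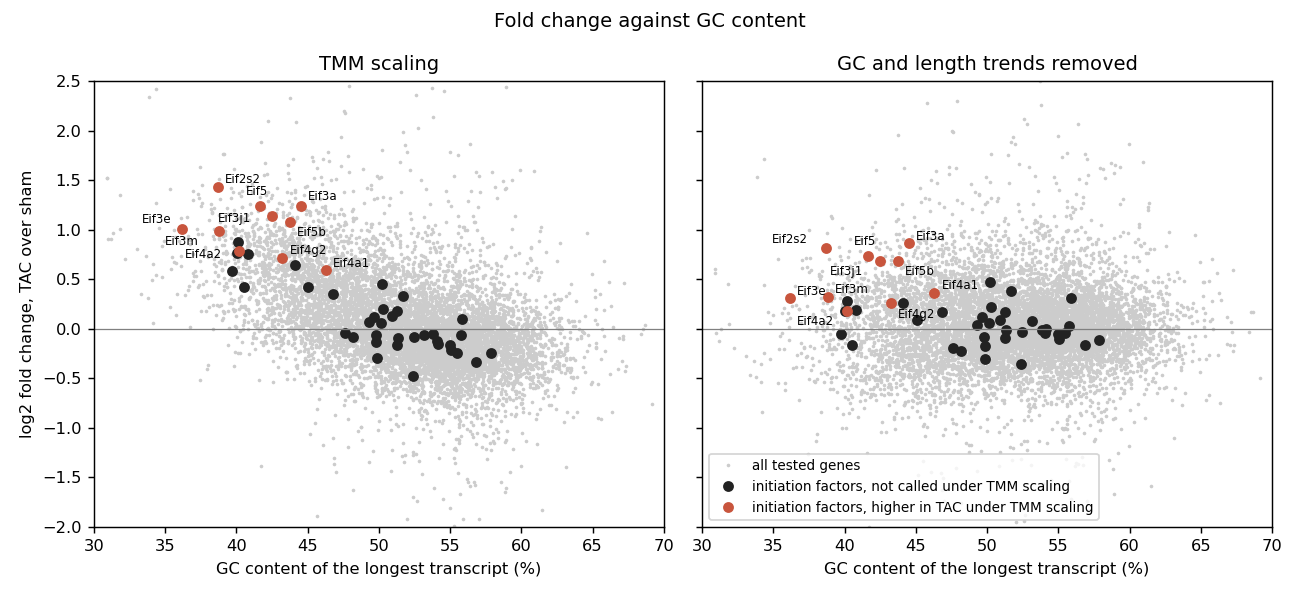
Log2 fold change of each gene, TAC over sham, against the GC content of its longest transcript in percent, with TMM scaling (left) and with GC and length trends removed (right). Grey points are all tested genes inside the axes, and large points are the 46 tested initiation factors, red where TMM scaling called them. The red points lie at 36.2% to 46.3% GC, and after trend removal Eif3a and Eif2s2 are the highest.

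With each library's trend over GC content and length removed, 2 of the 46 initiation factors rose and 0 fell, against 2.76% and 2.54% of all tested genes. The number of initiation factors at an unadjusted p under 0.05 was 9, given here without the matching share of all tested genes. The 2 genes were Eif3a, with a log2 fold change of 0.86 (edgeR adjusted p = 0.0369), and Eif2s2, with 0.81 (adjusted p = 0.0339). Of the 2, Eif2s2 passed the minimum of 1 FPKM only through its TAC values. Eif5 was at 0.73 (adjusted p = 0.0514). Eif3j1 and Eif5b were each at 0.68, with adjusted p of 0.126 and 0.165. The values of Eif3e, Eif3m, Eif4a1, Eif4a2 and Eif4g2 came down to between 0.18 and 0.36, and their adjusted p lay between 0.0888 and 0.323. Removing a trend also takes away any true difference that follows GC content.

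The calls depended on single libraries. Without sham 1, 7 of the 10 still passed, and without TAC 2 only Eif2s2 did, a gene that passed the minimum of 1 FPKM only through TAC. The number of all tested genes that passed changed with the library left out too, over the range given in the last section. The counts of initiation factors therefore do not show a dependence on single libraries that is particular to them. Without TAC 3, 11 initiation factors rose and Eif4ebp2 fell, where 9.24% of all tested genes rose and 10.1% fell. All 10 genes were positive in every fit that tested them. The lowest value over fits that left out 1 library was 0.50 for Eif4a1, and the highest was 1.73 for Eif2s2.

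**Figure D4:**
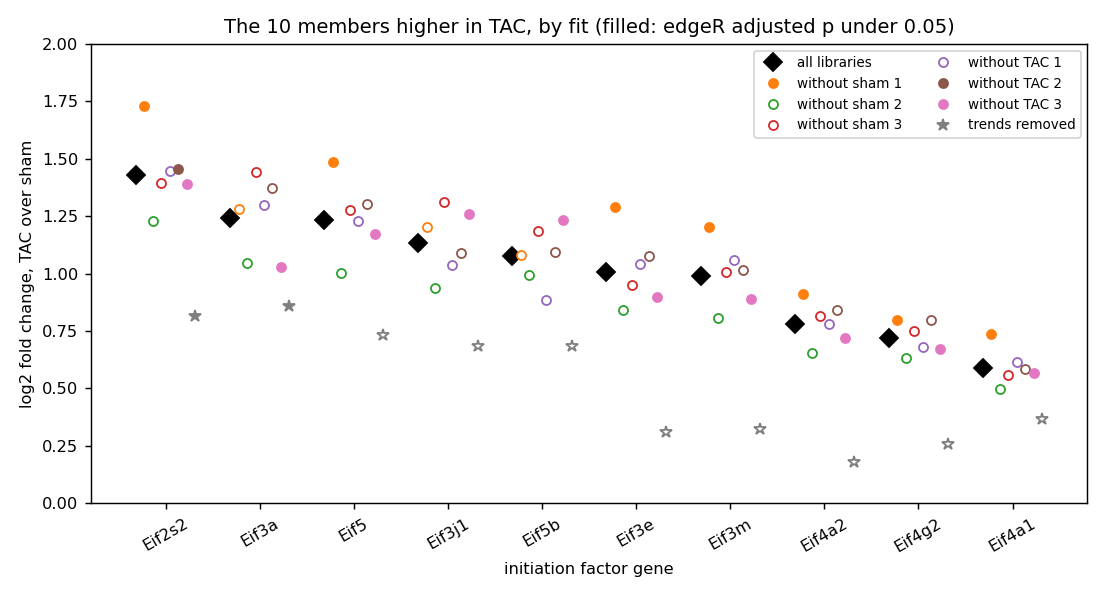
Log2 fold change, TAC over sham, of the 10 genes that rose, in the fit of all 6 libraries (black), in the 6 fits that each leave out 1 library (circles) and with GC and length trends removed (stars). Filled symbols have an edgeR adjusted p under 0.05. All symbols lie above 0, and the stars of Eif2s2 and Eif3a are the 2 that are filled.

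Other genes of translation control were described from a list of 68 genes, of which 55 were tested. Of these 8 rose, 1 fell and 46 did not pass, where 4.71% of all tested genes rose and 2.29% fell, and the median log2 fold change was 0.34. With trends removed 2 rose and 1 fell, beside 2.76% and 2.54% of all tested genes. The gene that fell there was not the gene that fell in the fit without trend removal. Without TAC 3, 12 rose and 3 fell, beside 9.24% and 10.1% of all tested genes. Of the eIF2 kinases only Eif2ak1 was abundant enough to test, at 47.5, 41.0 and 44.5 CPM in sham and 43.9, 43.7 and 51.3 CPM in TAC, a log2 fold change of 0.06 (edgeR adjusted p = 0.805). Eif2ak2, Eif2ak3 and Eif2ak4 were under 4 CPM in every sample and were not tested. Eif2ak2 was at 1.29, 0.200 and 0.778 CPM in sham and 2.21, 1.87 and 1.89 CPM in TAC, with every TAC sample above every sham sample.

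Of 11 genes of the eIF2 phosphatase and the ATF4 branch, 2 rose, where 4.71% of all tested genes did. Nupr1, a stress-induced target of ATF4, was at 2.37, 1.57 and 1.77 CPM in sham and 4.55, 4.64 and 7.42 CPM in TAC, a log2 fold change of 1.54 (SE 0.28, edgeR adjusted p = 0.0271) and, with trends removed, 1.53 (adjusted p = 0.0223). It averaged 0.739 FPKM in sham and 1.99 FPKM in TAC, so it passed the minimum of 1 FPKM only through the group in which it was high. Ppp1cb, a catalytic subunit of protein phosphatase 1, had a log2 fold change of 0.89 (adjusted p = 0.0300), and with trends removed 0.33 (adjusted p = 0.154). Atf4, whose mRNA is translated when eIF2 is phosphorylated, was at 45.6, 46.1 and 54.5 CPM in sham and 58.3, 79.4 and 54.7 CPM in TAC. The groups were just apart in CPM and overlapped in FPKM, and the log2 fold change was 0.40 (SE 0.17, adjusted p = 0.180).

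Among the 16 tested genes of other initiation proteins, 5 rose, beside 4.71% of all tested genes. With trends removed 1 of the 16 rose, beside 2.76%. Ddx3x, a helicase that helps scanning, was at 17.0, 13.6 and 15.6 CPM in sham and 29.0, 27.1 and 27.5 CPM in TAC, a log2 fold change of 0.85 (SE 0.15, edgeR adjusted p = 0.0251) that was 0.30 with trends removed (adjusted p = 0.191). Paip1, which links the poly(A)-binding protein to eIF4A, had a log2 fold change of 1.04 (adjusted p = 0.0275), and with trends removed 0.41 (adjusted p = 0.175). Denr, which acts in reinitiation, had one of 0.95 (adjusted p = 0.0297) and was at 1.05 with trends removed (adjusted p = 0.0223). Paip2, which restrains the poly(A)-binding protein, had one of 0.79 (adjusted p = 0.0433), and with trends removed 0.13 (adjusted p = 0.640). Pabpc1, the poly(A)-binding protein, was at 42.3, 32.0 and 38.1 CPM in sham and 52.9, 50.2 and 57.8 CPM in TAC, with a log2 fold change of 0.52 (adjusted p = 0.0685).

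In the mTORC1 group Mtor itself had a log2 fold change of 0.09 (edgeR adjusted p = 0.850). Ddit4, an inhibitor of mTORC1 named here after its values were seen, fell, from 39.5, 51.3 and 74.7 CPM in sham to 22.1, 16.9 and 31.9 CPM in TAC. Its log2 fold change was -1.22 (SE 0.29, adjusted p = 0.0450) and, with trends removed, -1.02 (adjusted p = 0.102). The 8 elongation genes did not pass. Eef1a1 had a log2 fold change of 0.51 (adjusted p = 0.0935), Eef1a2, its muscle paralog, -0.21 (adjusted p = 0.358), Eef2 -0.18 (adjusted p = 0.486) and its kinase Eef2k -0.42 (adjusted p = 0.297). Without TAC 3 the value of Eef2k was -0.77 (adjusted p = 0.0105). The release factor gene Etf1 rose, with a log2 fold change of 0.87 (adjusted p = 0.0352), and was at 0.52 with trends removed (adjusted p = 0.0927). Of 87 tested cytosolic ribosomal protein genes 6 rose and 0 fell, beside 4.71% and 2.29% of all tested genes, and their median log2 fold change was 0.09. With trends removed 2 rose, Rpl21 and Rpl26, which are named here after their values were seen, and without TAC 3 11 rose, beside 9.24% of all tested genes. In the fit with all samples Rps24 had a log2 fold change of 0.87 (adjusted p = 0.0251), Rpl23 0.94 (adjusted p = 0.0271) and Rpl5 0.71 (adjusted p = 0.0333). With trends removed these were 0.44, 0.59 and 0.20, with adjusted p of 0.104, 0.0927 and 0.254.

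Markers of the tissue and its other cells were measured beside these values. The 10 ventricular cardiomyocyte genes summed to 97100 to 110000 CPM in sham and 68900 to 102000 CPM in TAC. Of 6 pressure-load genes 5 rose, where 4.71% of all tested genes did. The 6 genes summed to 2610 to 3340 CPM in sham and 7050 to 15900 CPM in TAC. The 8 fibroblast genes summed to 413 to 624 CPM in sham and 614 to 1680 CPM in TAC, the highest in TAC 3. Of these 8, 3 rose, namely Dcn, Lum and Postn, beside 4.71% of all tested genes. With trends removed 1 of the 8 rose, Postn, beside 2.76% of all tested genes. Postn passed the minimum of 1 FPKM only through TAC, at 0.199 FPKM in sham and 3.57 FPKM in TAC. Endothelial, smooth muscle and macrophage sums overlapped between groups, and T and B cell genes and adipocyte genes summed to at most 2.24 CPM in any library. The 3 red blood cell genes summed to 322 to 1060 CPM in sham and 700 to 1630 CPM in TAC, and their median log2 fold change was 0.98. The 4 Y-linked genes, Eif2s3y among them, summed to 8.81 to 12.3 CPM in sham and 16.7 to 19.3 CPM in TAC, without overlap. Singly, Kdm5d and Uty overlapped between groups, while Ddx3y and Eif2s3y did not. The log2 fold change of Ddx3y was 0.64, and -0.12 with trends removed. Xist was at 0.206 CPM in TAC 2 and at 0 CPM in every other library. The part of cell composition in the initiation factor results was not tested, and in whole tissue fewer cells of a type and less RNA per cell cannot be told apart.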

How the data were processed

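Poly(A) RNA-seq of 6 left ventricles was analysed from 1 deposited table. Reads were processed with cutadapt 1.9, with HISAT2 2.0.4 and with StringTie 1.3.4d on build GRCm38, per the submitters' processing notes. The annotation release and any use of strand in counting are not known here. Per the file headers, the authors deposited FPKM and count columns for each library. The value the authors deposited in each count column was taken as an estimated count, of the kind StringTie derives from coverage, so counting error understates its uncertainty. How those whole numbers were made is not stated.

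Genes averaging 1 FPKM or more were tested with edgeR 4.0.16 (R 4.3.3): TMM scaling and glmQLFTest, with Benjamini-Hochberg adjustment over 8795 genes and a threshold of 0.05. A standard error is the log2 fold change divided by the square root of F. CPM are scaled by TMM. Sums over complexes were compared by exact permutation. GC content, length and coding sequence came from GENCODE M21 (GRCm38), which held 24547 of the identifiers. GC content and length trends of each library were taken out by lowess (span 0.3, 3 rounds) as offsets. Near-identical copies were found with blastn 2.17.0.

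Alternatives were DESeq2 1.42.0, limma 3.58.1 on log2(FPKM + 1) and log2(FPKM + 0.1), other scalings and filters, the replicate block and leaving out each library. Adding the counts of copies, and trend removal with the block, were chosen after seeing the data. The fits were tested on simulated data in several draws. The limit on unchanged genes among edgeR's calls was met over the pooled draws and slightly missed in the first draw alone, which is why draws were pooled. DESeq2 called unchanged genes more often than its threshold allows. The genes and lists were chosen with earlier results of these data known. Values in every sample are given for genes that passed, for the most abundant gene, the lowest p and the extreme fold changes of each complex, and for set eIF2 and eIF4E-binding genes. A gene of the translation control list is counted but not reported here.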

Additional observations from a re-analysis of the deposited data

How the results depend on the processing

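The number of initiation factors that passed was 10 (all higher) and became 4 with limma on log2(FPKM + 1), 5 with limma on log2(FPKM + 0.1), 4 with library size scaling, 1 with no filter on low values, 3 at a mean FPKM of 5 or more, 2 with trends removed, and 1 with trends removed and the replicate block. It ranged from 0 to 12 when 1 library was left out. Over all genes 615 passed (414 higher, 201 lower). The count was 1648 with DESeq2, 345 with library size scaling (157 higher, 188 lower), 285 with no filter and 211 at a mean FPKM of 5 or more, and 12 to 1705 without 1 library. Upper-quartile scaling gave 555 higher and 164 lower, and limma on log2(FPKM + 1) 174 and 338. The fits with library size scaling and limma on log2(FPKM + 1) moved the median of all genes by -0.12 and -0.14. The 3 sham and 3 TAC samples share numbers, and the labels state no pairing. Same-numbered deviations correlated at -0.10, 0.14 and -0.06, and differently numbered ones between -0.23 and 0.25. With 3 samples in each group these values cannot decide whether the numbers pair samples. With the replicate block 183 genes and 3 initiation factors passed, and 168 genes with the block and trends removed.

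The cause was not tested for these changes of sign, all in genes or sums that did not pass. Eif1 was -0.0112 with limma at either pseudocount and -0.0021 with library size scaling. Eif1ax was -0.0513 with trends removed and -0.0493 with the block added. Eif1b was 0.0090 with upper-quartile scaling, 0.0219 at a mean FPKM of 5 or more, and -0.19 to 0.0978 without 1 library. Eif2b5 was 0.0033 with upper-quartile scaling, 0.0234 at a mean FPKM of 5 or more, 0.0758 with trends removed, 0.0772 with the block added, and -0.11 to 0.0088 without 1 library. Eif4ebp1 was 0.0022 at a mean FPKM of 5 or more, and -0.17 to 0.103 without 1 library. Log2 ratios of summed CPM were 0.132 for eIF1, 0.0299 for eIF3, 0.122 for eIF4A and 0.0994 for eIF4E with eIF4G. Without 1 library, the FPKM ratios ran from -0.10 to 0.0773 for eIF1, -0.14 to 0.0054 for eIF4A and -0.31 to 0.0899 for eIF4E with eIF4G.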
